A study of Mus musculus with 3 samples.

Results

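The genes examined were Nqo1 and 5 genes of NADPH supply, namely G6pdx, Pgd, Taldo1, Tkt and Me1. They were studied for sites enriched with an anti-MafG antibody in mouse embryonic fibroblasts (MEFs) that carried a tethered Nrf2-MafG heterodimer. Members were the summits of the deposited vehicle and DEM lists that fell in a given window of the mm9 genome around each of the 6 genes. These were 2 of the 182 vehicle summits and 7 of the 1246 DEM summits. A summit is the base of highest signal in a region called as enriched in chromatin immunoprecipitation sequencing (ChIP-seq). Its score is the −log10 of a p or q value from the authors' peak caller, and the sources used here leave it unsaid whether p or q was used. The rank of a summit is 1 plus the number of summits with a higher score in its list, so equal scores share a rank.

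All cells had the genotype MafF-/-::MafG-/-::MafK-/- (F0G0K0) and carried T-N2G, a tether of Nrf2 to MafG, which the genotype label spells T-NG2. They therefore lacked all small Maf genes, and the construct was the labelled source of MafG for the anti-MafG antibody. The vehicle group was 1 library. The DEM group was 1 library from cells given 100 µM diethyl maleate, an electrophile that depletes glutathione, and both groups were treated for 4 hours. The remaining library of the 3 was input DNA, for which no list was used. There were no cells without the construct among the samples, and neither how the construct was expressed nor whether the cells were 1 clone is stated in the labels. With 1 library per condition and unknown read depth, no difference between vehicle and DEM was tested and no value has a replicate error.

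Nrf2 is a transcription factor that electrophiles and oxidants stabilise. It binds DNA together with a small Maf protein at antioxidant response elements, and its targets include many genes of NADPH production. Nqo1 is a flavoenzyme that reduces quinones with NADH or NADPH and is a commonly used Nrf2 target. G6pdx and Pgd encode the dehydrogenases that make NADPH in the oxidative arm of the pentose phosphate pathway. Taldo1 and Tkt encode enzymes of its non-oxidative arm, which exchanges carbons between sugar phosphates and makes no NADPH itself. Me1 encodes the cytosolic malic enzyme, which makes NADPH while turning malate into pyruvate.

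With DEM, a summit stood in the window of each of the 6 genes, and 5 of the genes had 1 summit each. With vehicle, a summit stood in the windows of Pgd and Tkt and in none of the other 4. The order of the genes by DEM score was Tkt (114.6), Pgd (82.3), Nqo1 (65.6), G6pdx (34.5), Me1 (29.3) and Taldo1 (5.21, at each of 2 summits). The median of the DEM list was 15.2 and its upper quartile 32.7. Thus 4 genes scored above the upper quartile, Me1 scored between it and the median, and Taldo1 lay under the lower quartile of 8.87. With a score of at least 10 required, 5 of the 6 genes had a DEM summit, and Taldo1 had none. The share of all mouse genes with a summit in such a window was not analysed here. Scores rise with read depth and were not compared as levels between the lists.

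**Figure D1:**
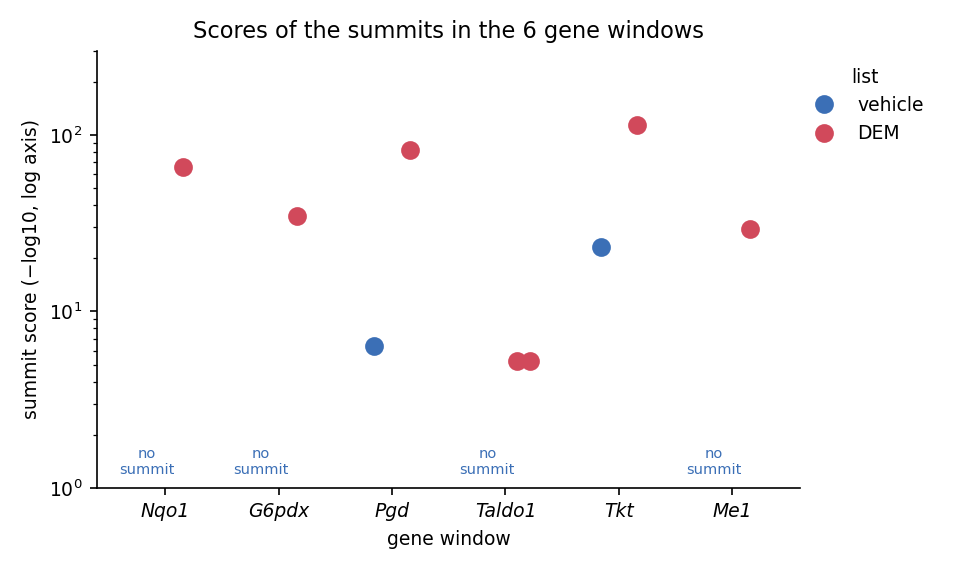
Score of each summit (−log10 of p or q, log axis) in the window of each gene, with vehicle in blue and DEM in red, and 1 point per summit. DEM summits stand in all 6 windows, from 5.21 at Taldo1 to 114.6 at Tkt, and vehicle summits stand only at Pgd (6.38) and Tkt (23.2).

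The promoter sequences below are shown because the binding protein recognises a short DNA element, whose letters can be sought in them. All 6 genes matched a RefSeq promoter (GRCm38.p6), in 8 entries of 300 bases, since Pgd and Me1 each had a further start. Each entry runs from 250 bases before a gene's start to 50 after it. The core of the antioxidant response element was searched as TGACNNNGC on both strands, so also as GCNNNGTCA, and the small Maf half-site as TGCTGA on both strands, where matches of the 2 motifs may overlap. The element's letters occurred in 12.4% of all 32851 RefSeq promoters of this length, and in 3.04% with an A next after them. The half-site's letters occurred in 19.5%. Among the members, the element's letters stood in 3 of 8 entries, of G6pdx, Me1 and the further start of Pgd, and the half-site in 0 of 8. Only the match at the further start of Pgd had an A next after it, and those of G6pdx and Me1 did not. A match describes letters and not a bound site, and sequence outside these entries was not searched. Summits are given in mm9 and promoters in GRCm38.p6. Positions were not converted between the builds, so the 2 sets were not set against each other. Where a summit lay relative to its gene's start, exons or introns was not analysed here.

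Nqo1 had 1 DEM summit, at position 109927536 of chromosome 8 (mm9), with a score of 65.6 and rank 134 of 1246. Nqo1 had no vehicle summit in its window, and the nearest vehicle summit stood 3.70 Mb away, at 106226363. Absence from a list means that nothing there passed the calling threshold, with depth unknown, and does not show that the site was unbound. The DEM summit ranked 7 of the 69 DEM summits on chromosome 8. Among the 1066 DEM summits without a vehicle summit within 100 bp it ranked 21, which is 1.97% from the top of that set. It stood 65.5 kb after the start of the window and 50.5 kb before its end. The next DEM summits on either side, 264 kb below and 185 kb above, had scores of 13.9 and 13.0. Nqo1 was thus the strongest DEM site of the set without a vehicle call, with weaker DEM sites as its neighbours. In RefSeq gene order, Nqo1 lies between the protein-coding genes Nfat5 and Nob1. The 250 bases before its start (GRCm38.p6, chr8:107403206-107403455, minus strand) contain none of the letters sought, so no base is in capitals. Sequence further upstream of Nqo1 was not searched.
Nqo1 promoter: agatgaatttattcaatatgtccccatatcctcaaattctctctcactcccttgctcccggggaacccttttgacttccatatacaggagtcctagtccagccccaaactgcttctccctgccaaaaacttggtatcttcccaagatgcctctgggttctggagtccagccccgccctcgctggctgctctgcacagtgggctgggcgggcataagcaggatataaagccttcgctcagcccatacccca

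G6pdx, the X-linked gene of glucose-6-phosphate dehydrogenase, which carries out the entry step of the pathway, had 1 DEM summit at position 71670703 of chromosome X. Its score was 34.5, a value shared by 5 DEM summits, and its rank 290. It ranked 4 of the 23 DEM summits on that chromosome, and 125 among the 1066 without a vehicle match. The nearest vehicle summit stood 426 kb away at 71244793, with a score of 13.9, and was matched by a DEM summit at 71244834 with a score of 57.4. The surroundings of G6pdx therefore held a site called in both lists that outscored the G6pdx site in the DEM list. That site lay 359 kb outside the G6pdx window. The next protein-coding genes in RefSeq order are Ikbkg and Ctag2l1. The 250 bases before the start of G6pdx (GRCm38.p6, chrX:74428881-74429130, minus strand) hold the element's letters once, on the opposite strand to the gene, at -57 to -49 from the start. In the line below this stretch is in capitals, as GCTCAGTCA, which reads TGACTGAGC on the other strand.
G6pdx promoter: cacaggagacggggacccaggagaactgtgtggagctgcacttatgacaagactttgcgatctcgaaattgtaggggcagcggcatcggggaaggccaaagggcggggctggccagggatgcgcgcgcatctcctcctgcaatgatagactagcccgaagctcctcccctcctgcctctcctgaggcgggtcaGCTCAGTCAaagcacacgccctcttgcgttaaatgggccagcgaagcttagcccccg

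Pgd, the gene of 6-phosphogluconate dehydrogenase, which makes NADPH in the same arm, was called in both lists. Its vehicle summit stood at position 148544963 of chromosome 4, with a score of 6.38 and rank 141 of 182, a score that 4 vehicle summits shared. Its DEM summit stood at 148544986, 23 bp away, with a score of 82.3 and rank 105 of 1246. Ranks in lists of such different length show no change, and the median DEM score of the 180 sites called in both lists, 82.4, was close to that of Pgd. On chromosome 4 it ranked 11 of 12 vehicle summits and 7 of 80 DEM summits. The next DEM summits lay 6.82 Mb below, at a site also called with vehicle, and 462 kb above, with scores of 62.5 and 9.91. No vehicle summit lay at a higher coordinate on the chromosome. Pgd lies between Cenps and Kif1b in RefSeq order. Its promoter at the upstream start held none of the letters sought. The further start held TGACATTGC at 4 to 12 bases after it, with an A next. This match thus lay downstream of the start and not in the stretch before it. Whether it falls in coding sequence was not analysed here.

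Taldo1, the gene of transaldolase, had the weakest calls of the set. In the windows as given it was the only one of the 6 genes with more than 1 DEM summit. Its DEM summits stood at 148578973 and 148618371 of chromosome 7, 39.4 kb apart, and had the same score of 5.21. Both had rank 1153 of 1246, as 17 DEM summits, these included, shared that score. On chromosome 7 they ranked 71 of 77. The nearest vehicle summit, at 134049263, lay 14.5 and 14.6 Mb away from them. A further DEM summit stood 14.9 kb beyond the end of the window, at 148654928, and scored higher (10.7, rank 820). The 3 DEM summits therefore formed a loose group of low scores, of which the highest was outside the window. The lower-coordinate summit stood 51.0 kb after the start of the window, and the other 21.6 kb before its end. The genes next to Taldo1 in RefSeq order are Eps8l2 and Gatd1, and its promoter held none of the letters sought.

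Tkt, the gene of transketolase, had the highest score of the set in each list. Its vehicle summit stood at 31377837 of chromosome 14, with a score of 23.2 and rank 33 of 182. Its DEM summit stood at 31377798, 39 bp away, with a score of 114.6 and rank 60 of 1246. Tkt was also the highest-scoring site on chromosome 14 in both lists, of 4 vehicle and 33 DEM summits. The next DEM summit above, 107 kb away and outside the window, had a score of 7.96, and the next below, 2.11 Mb away, a score of 12.6. Both neighbours thus scored far below the Tkt site. In the vehicle list the next summits were 6.33 Mb below and 68.6 Mb above. Tkt lies between Dcp1a and Prkcd in RefSeq order. The 250 bases before its start (GRCm38.p6, chr14:30548881-30549130, plus strand) are shown because Tkt scored highest of the set. They contain none of the letters sought. Whether the summit lies in this stretch was not analysed here, so the letters of the site itself are unknown.
Tkt promoter: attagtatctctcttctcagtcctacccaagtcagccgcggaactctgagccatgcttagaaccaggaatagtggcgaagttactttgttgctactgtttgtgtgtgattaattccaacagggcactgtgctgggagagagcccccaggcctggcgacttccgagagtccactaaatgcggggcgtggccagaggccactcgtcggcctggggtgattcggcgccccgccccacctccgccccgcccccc

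Me1 had 1 DEM summit, at position 86589952 of chromosome 9, with a score of 29.3 and rank 351 of 1246. It ranked 18 of the 78 DEM summits on that chromosome and 180 among the 1066 without a vehicle match. The nearest vehicle summit stood 7.60 Mb away, at 94187157. The neighbouring DEM summits lay 625 kb below, with a score of 6.29, and 5.90 Mb above, with a score of 10.6. The Me1 site was thus the most isolated of the set, with 0 other DEM summits within 500 kb, where the other 5 genes had 1 or 2. Its window was the longest, at 216 kb, and the summit stood 52.0 kb before the window's end. Its neighbours in RefSeq order are Rwdd2a and Prss35. The stretch around the upstream start of Me1 (GRCm38.p6, chr9:86695912-86696164, minus strand) ends with the element's letters on the strand of the gene. They run from -6 to 3 across the start, as TGACTCAGC, in capitals below.
Me1 promoter: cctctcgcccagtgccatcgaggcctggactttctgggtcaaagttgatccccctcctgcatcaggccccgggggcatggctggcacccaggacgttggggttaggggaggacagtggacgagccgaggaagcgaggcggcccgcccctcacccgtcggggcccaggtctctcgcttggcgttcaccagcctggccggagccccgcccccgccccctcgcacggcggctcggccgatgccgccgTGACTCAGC

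**Figure D2:**
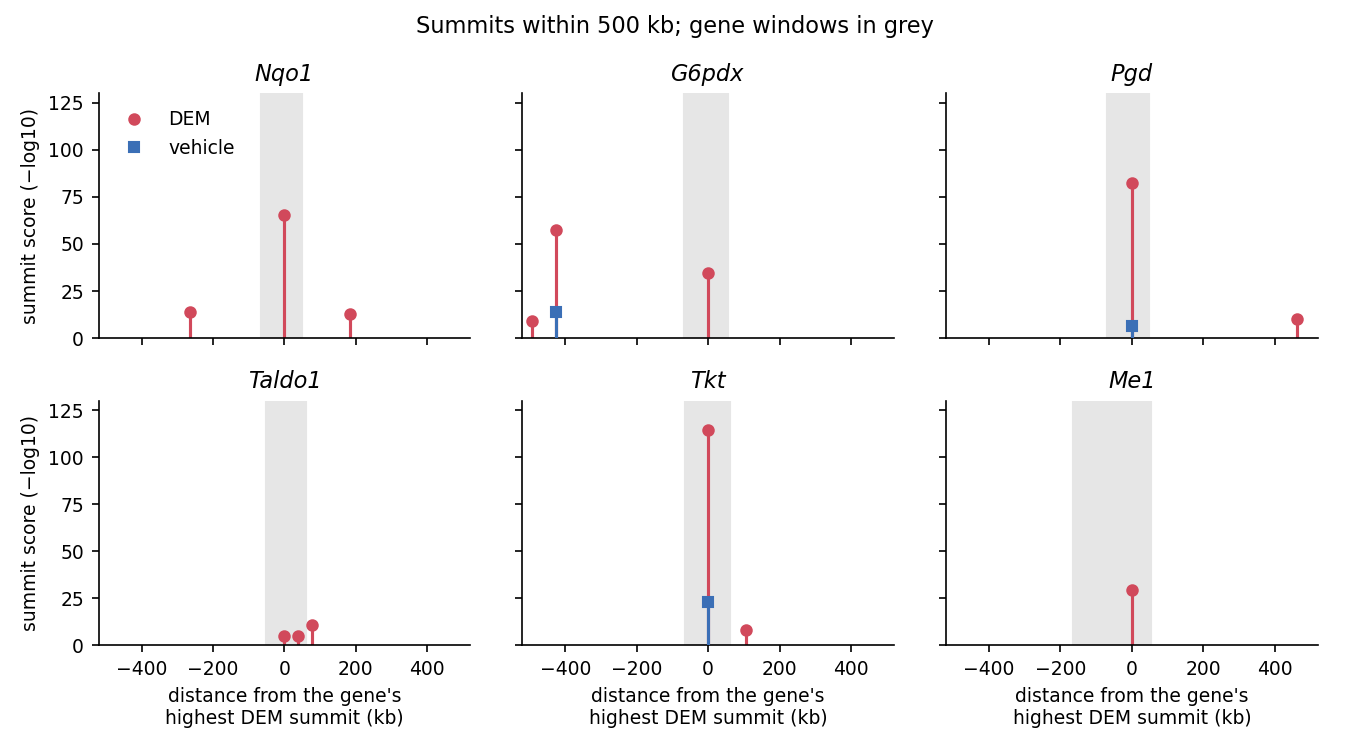
Summits within 500 kb of the highest DEM summit of each gene (for Taldo1 the lower-coordinate one of 2 equal summits), plotted by distance in kb against score (−log10), with DEM in red, vehicle in blue and the gene window in grey. The Me1 panel holds 1 DEM summit and no other, the Taldo1 panel holds 3 low DEM summits, and the G6pdx panel holds a site at 426 kb that was called in both lists.

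The next question was how the members stood in each list as a whole. The 6 windows covered 811 kb and held 7 DEM summits, or 8.63 per Mb, against 0.482 per Mb over the 2584 Mb between base 1 and the last summit of each chromosome. For vehicle the values were 2.47 and 0.0704 per Mb. The windows surround genes, and the whole stretch includes sequence far from genes, so the figures describe where the summits lie and were not tested. The genes were also chosen with earlier results of these data known, and no like windows around other genes were counted. The densities are therefore no measure of enrichment. By rank, with each list cut into 10 parts of about equal size, Tkt and Pgd stood in part 1 of the DEM list, Nqo1 in part 2, G6pdx and Me1 in part 3 and Taldo1 in part 10. In the vehicle list Tkt stood in part 2 and Pgd in part 8.

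**Figure D3:**
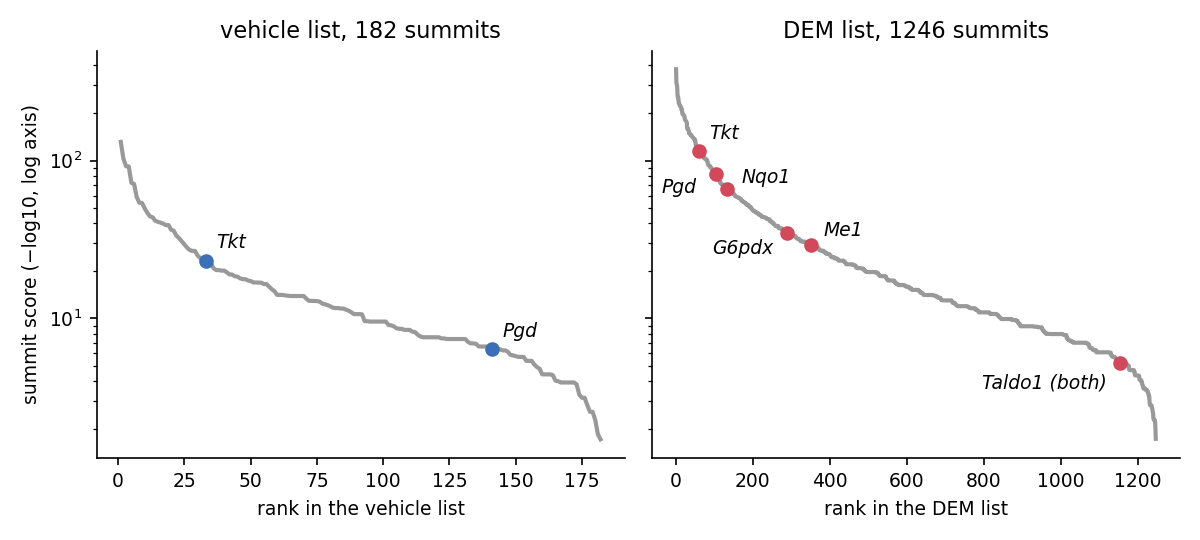
Score (−log10, log axis) against rank for all 182 vehicle summits (left) and all 1246 DEM summits (right) as grey lines, with the members as points. Tkt and Pgd stand at ranks 33 and 141 with vehicle, and the DEM points run from rank 60 for Tkt to rank 1153 for both Taldo1 summits.

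Whether the members were called in both conditions was then set against the whole lists. Of the 7 DEM summits in the windows, 2 had a vehicle summit within 100 bp, and in the whole DEM list 14.4% had one. Both vehicle summits in the windows had a DEM summit within 100 bp, and in the whole vehicle list 98.9% had one. With so few members, these counts tell nothing about the set beyond the lists. The share with a vehicle match fell along the DEM list. It was 86.3% in part 1 (exact 95% interval 79.0 to 91.8%, 107 of 124 summits), where Tkt and Pgd stood and were matched. It was 41.6% in part 2 (32.9 to 50.8%), where Nqo1 stood and was not. In part 3, with G6pdx and Me1, it was 11.2% (6.26 to 18.1%). Nqo1 was 1 of 73 summits of part 2 without a vehicle match, and G6pdx and Me1 were among 111 in part 3. In part 10, with Taldo1, 1 of 124 summits had a match. Each member was thus on the side of most summits of its part. These intervals cover counting error over summits only.

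**Figure D4:**
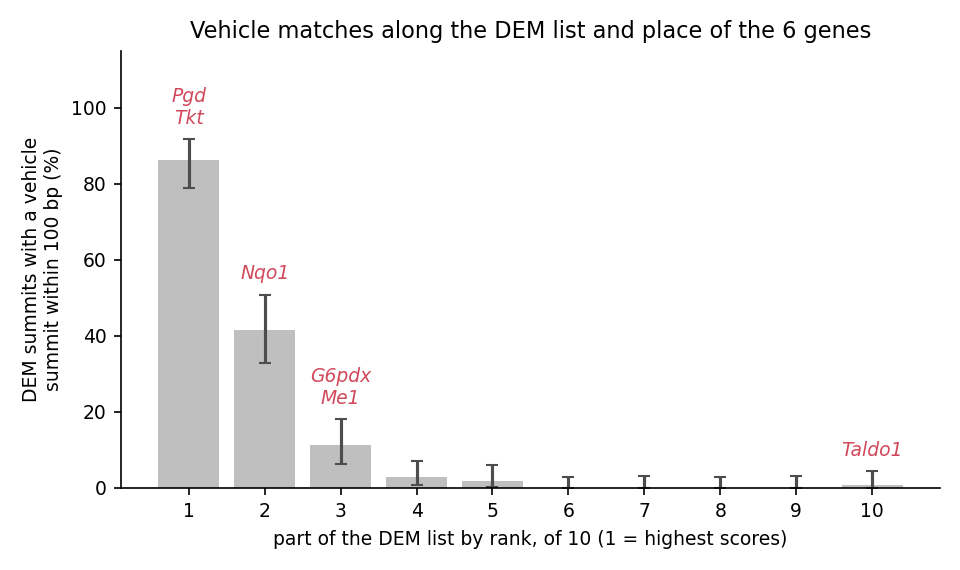
Share of DEM summits with a vehicle summit within 100 bp (%) in each of 10 parts of the DEM list by rank, with exact 95% intervals as error bars and the member genes above their part. The share falls from 86.3% in the part with Pgd and Tkt to 41.6% in that of Nqo1 and 11.2% in that of G6pdx and Me1.

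Pgd and Tkt could be ordered among the 180 sites called in both lists, which gives ranks over the same sites. Tkt ranked 32 by vehicle score and 58 by DEM score, a difference of 26 places. Pgd ranked 140 by vehicle score and 91 by DEM score, a difference of 49 places. The difference over the 180 sites had a median of 24.5 places, quartiles of 9.75 and 42.0, and a maximum of 119. Tkt therefore lay near the median, and the difference for Pgd exceeded the upper quartile, with the higher place in the DEM order. How much such ranks vary between libraries of 1 condition is unknown. The summits of Pgd and Tkt stood 23 and 39 bp apart between lists, against a median of 17.5 bp and quartiles of 6 and 34.25 bp over the shared sites.

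**Figure D5:**
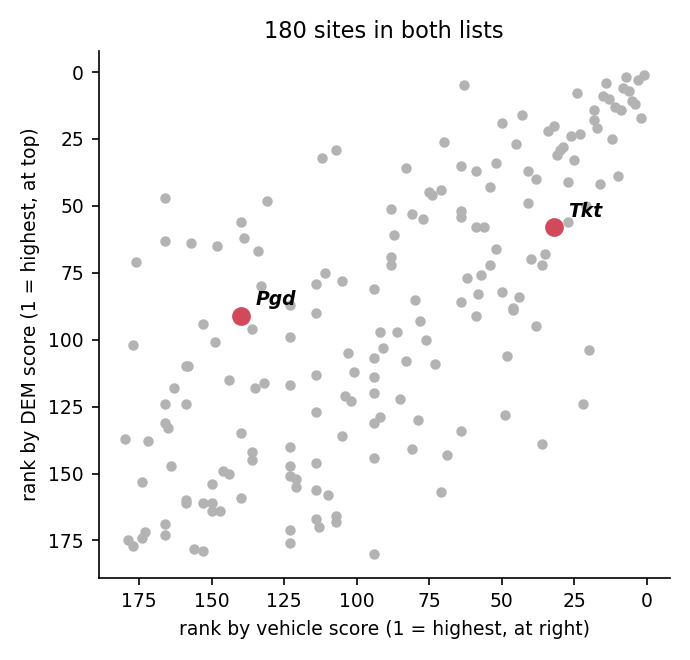
Rank by vehicle score against rank by DEM score for the 180 sites called in both lists, each as a point, with the highest scores at the top right. Tkt stands at ranks 32 and 58, and Pgd at ranks 140 and 91.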

How the data were processed

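ChIP-seq with an antibody against MafG gave 1 vehicle and 1 DEM summit list, and the input library had none used here. The tools named are MACS2 (2.1.1.20160309), Bowtie2 (2.2.9) and bcl2fastq (2.16.0.10), and the build is mm9, per the submitters' processing notes. Column 5 of the 5 columns that the authors deposited holds the score, a −log10 value. Not given in the sources used here were the calling threshold, how duplicate reads were handled and whether the input served as control. Read depth is unknown.

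Positions were converted to 1-based. Summits inside the windows were taken as members, and summits of the 2 lists within 100 bp were called matched. The code of this step was checked on simulated data with planted matches. That check does not show whether 100 bp suits these data. The named genes are those of the rule, with the summits next to each window. The members and lists were chosen with earlier results of these data known. The other genes of NADPH supply that were planned need an mm9 annotation and were not analysed here. RefSeq tables (GRCm38) gave promoters and the order of genes only. Alternatives were other windows, score minimums, match distances and a shorter DEM list. Computation used Python 3.11.15 with matplotlib 3.10.9, scipy 1.17.1, pandas 2.3.3 and numpy 2.4.6.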

Additional observations from a re-analysis of the deposited data

How the results depend on the processing

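Of 28 alternative values, 21 lay within 1.5 times the reported one and 7 did not. A score of at least 10, or of at least 20, left 1 vehicle summit and 1 gene with one (Tkt). It also left 5 DEM summits and 5 genes with one, so that Taldo1 no longer had a DEM summit. With at least 10 in both lists, 1 DEM summit had a vehicle match. Shortening the DEM list to the length of the vehicle list left 3 DEM summits and 3 genes (Tkt, Pgd and Nqo1). These settings keep fewer summits by construction. The windows trimmed by 25 kb or widened by 50 kb at each end gave 6 and 9 DEM summits. In each case 6 genes had a DEM summit. Trimming left out the Taldo1 summit 21.6 kb before its window's end, so each gene then had 1. Widening added a Taldo1 summit 14.9 kb outside its window and a Tkt summit 44.4 kb outside. Both genes then had more than 1. Match distances from 50 to 1000 bp gave 2 matched summits. This count could not change at these distances, since every unmatched member lay at least 426 kb from a vehicle summit. Over the autosomes, ranks were 347 for Me1 and 1132 for Taldo1 and were the same as in the whole list for Tkt, Pgd and Nqo1, and G6pdx, on X, has none. Only 23 DEM summits lie on X, so these ranks could move little. No paired analysis was possible because there was only 1 library of each treatment, so leaving out a replicate was not possible either. The unknown depth limits every absent call.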
